A study of Mus musculus with 12 samples.

Results

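The genes described here are 33 markers of blood vessels, 22 of endothelial cells and 11 of mural cells (pericytes and smooth muscle), out of 34614 mouse genes considered. They were chosen by name, with earlier results of these data known. In the data, 3′-end counts could be placed on 30 of them, and all 30 were among the 11387 genes tested. The 3 others are endothelial markers and are not described further: Egfl7 and Emcn received no count site, and Vwf could be given none because its strand was not known here. Of the 30, 25 also pass the filter on low counts in the IP libraries alone and 28 in the input libraries alone. Sox18, Tagln and Kcnj8 pass in the input libraries but not in the IP libraries, and Myh11 and Des in neither. For Sox18, Tagln and Kcnj8 a lower IP level is thus not independent of the filter. In the IP, 12 of the 30 had at least 1 library with 0 counts, and in the input 5 did.

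Endothelial cells line every vessel. They are joined by adhesion and tight junction proteins, respond to vascular growth factors through receptor tyrosine kinases, and in nerve and brain carry transporters that control what crosses from blood to tissue. Mural cells wrap the endothelium: smooth muscle cells of larger vessels contract through an actin and myosin apparatus, and pericytes of capillaries depend on the growth factor receptor PDGFRB. The dorsal root ganglion, which holds the cell bodies of sensory neurons, is densely supplied by such vessels.

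The mice carried Adv-Cre and Ribotag. In RiboTag mice a Cre recombinase, here expressed from the advillin gene active in sensory neurons, switches the ribosomal protein Rpl22 to a form with an HA tag, so that ribosomes of these cells can be precipitated with the RNA bound to them. One sciatic nerve was crushed, and injured and naive L4-L6 ganglia were taken from each animal 3 days later, 4 mice being pooled per replicate. There were 4 groups of 3 libraries, the IP and the input of naive and of injured ganglia, where IP is the ribosome-bound RNA of sensory neurons and input the RNA of the whole ganglion before precipitation. All groups carry Cre and tag, and a precipitation from untagged mice is not among the samples. Age, sex and background strain are not given in the labels.

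Libraries held 10045178 to 18687123 counts. Correlations between the log levels of libraries of the same group ranged from 0.869 to 0.953. The 5 genes chosen to check the injury labels, Atf3, Gal, Gap43, Sox11 and Jun, all rose in both IP and input, with Atf3 up by 5.41 ± 0.32 on the log2 scale in the IP (edgeR, adjusted p = 3.02e-09). Levels below are in CPM, counts per 1000000 counts in genes after TMM scaling. Differences are log2 fold changes ± standard error from 3 against 3 libraries, with edgeR's quasi-likelihood p adjusted over all 11387 genes and called under 0.05. Means carry ± SD with n = 3 libraries. Values given for libraries are in the order 1, 2, 3.

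**Figure D1:**
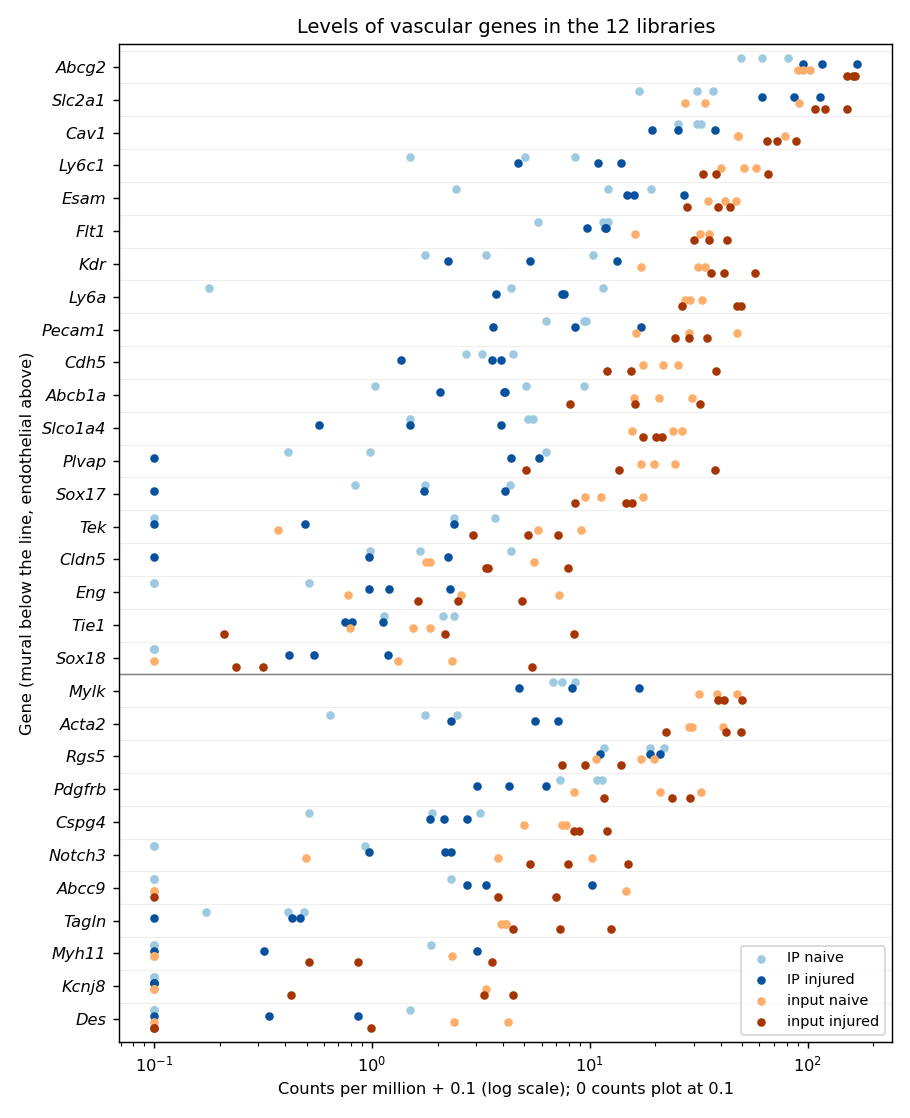
Level of each of the 30 vascular genes in each of the 12 libraries (horizontal axis, CPM plus 0.1 on a log scale, so that 0 counts plot at 0.1; each point is 1 library, coloured by group). Most input points (orange) lie to the right of the IP points (blue) of the same gene. For Rgs5, Abcg2 and Slc2a1, and for sparse genes such as Tie1 and Myh11, the colours lie close together or interleave.

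In naive ganglia, vascular RNA was lower in the IP than in the input. Of the 30 genes, 11 were lower and 0 higher past the threshold, against 5% of all tested genes lower and 1.96% higher. The 11 comprised 9 of 19 endothelial genes (Ly6c1, Cdh5, Kdr, Flt1, Slco1a4, Esam, Pecam1, Cav1 and Ly6a) and 2 of 11 mural genes (Acta2 and Mylk). The median log2 difference was -2.12 for the endothelial and -2.38 for the mural genes, and -0.02 over all tested genes, so that the median endothelial gene stood at 23.0% and the median mural gene at 19.2% of its input level. For 18 of the 30 genes every IP library lay below every input library, against 13.9% of all tested genes.

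Among the junction and surface genes of endothelium, Cdh5 encodes VE-cadherin, the adhesion molecule of endothelial junctions (GRCm38, chr8:104101613-104144504). Cdh5 had 3.10, 2.59 and 4.34 CPM in the naive IP libraries and 17.4, 25.2 and 21.5 CPM in the naive input libraries. The groups did not overlap, and Cdh5 was 6.36-fold lower in the IP (log2 -2.67 ± 0.57, adjusted p = 0.00561). Pecam1, the platelet and endothelial adhesion molecule CD31, had 9.52, 9.31 and 6.18 CPM in IP and 28.4, 16.1 and 47.1 CPM in input, and was lower by 1.87 ± 0.50 (adjusted p = 0.0263). Esam, an adhesion molecule of endothelial tight junctions, ranged from 2.32 to 18.9 CPM in IP and from 34.8 to 46.9 CPM in input (log2 -1.89 ± 0.49, adjusted p = 0.0234), a call lost in a fit of the 6 naive libraries (0.0662). Each of these groups was separate in naive ganglia. Cldn5, the main claudin of barrier endothelium, was low in both fractions, at 0.882 to 4.26 CPM in IP and 1.67 to 5.45 CPM in input (log2 -0.41 ± 1.36, adjusted p = 0.918).

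The surface antigens Ly6c1 and Ly6a, used to mark endothelium in the mouse, were also lower. Ly6c1 had 1.39, 8.48 and 4.93 CPM in IP and 51.0, 57.9 and 40.0 CPM in input, a 10.1-fold difference (log2 -3.34 ± 0.53, adjusted p = 3.67e-04). Ly6a had 0.0774, 11.4 and 4.26 CPM in IP and 27.3, 28.6 and 32.8 CPM in input (log2 -2.51 ± 0.74, adjusted p = 0.045), a call lost with all sites on the strand (0.0541), with sites at the annotated 3′ end alone (0.0552) and in a fit of the 6 naive libraries (0.126). IP naive 1 was the lowest library of both genes. Ly6c1 and Ly6a belong to a family of related neighbours on chromosome 15, and how reads shared between members were assigned is not stated in the sources used here. Plvap, which forms the diaphragms of fenestrated endothelium, had 0.310, 6.21 and 0.882 CPM in IP and 24.5, 19.5 and 17.1 CPM in input. Its groups were separate, yet its difference was not past the threshold (log2 -3.07 ± 1.07, adjusted p = 0.0937).

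Of the receptors, Kdr (VEGF receptor 2) and Flt1 (VEGF receptor 1) carry the response to vascular endothelial growth factors. Kdr had 3.25, 1.66 and 10.2 CPM in IP and 31.2, 33.6 and 17.1 CPM in input (log2 -2.42 ± 0.61, adjusted p = 0.0196). Flt1 had 5.65, 11.4 and 12 CPM in IP and 31.9, 16.0 and 35.2 CPM in input (log2 -1.52 ± 0.39, adjusted p = 0.022). For both receptors the lowest input library lay above the highest IP library. With sites at the annotated 3′ end alone, both lost their call in naive (adjusted p = 0.187 for Kdr and 0.334 for Flt1) and in injured ganglia (0.0754 and 0.12). Flt1 also lost it in the fit of the 6 naive libraries (0.0718). The angiopoietin receptor gene Tek and its relative Tie1 were sparse and did not pass (log2 -1.35 ± 1.53 with adjusted p = 0.699, and 0.45 ± 1.57 with adjusted p = 0.923), Tek with 0 counts in IP naive 2. Eng, the TGF-β co-receptor endoglin, had 4 counts over the 3 naive IP libraries and 99 over the input (log2 -4.59 ± 1.90, adjusted p = 0.169).

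Sox17 and Sox18 are transcription factors of endothelium. Sox17, which specifies arterial endothelium, had 80 counts over the naive IP libraries and 326 over the naive input (log2 -2.52 ± 0.98, adjusted p = 0.142), with no overlap between the groups. Sox18 had 0 counts in all 3 naive IP libraries and 29 in the input, at least 13.2-fold lower when 3 counts over the group are taken as the floor. That bound rests on 29 counts, input naive 2 also had 0, and Sox18 passes the low-count filter in input but not IP libraries.

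The transporters of barrier endothelium differed among themselves. Slco1a4, an organic anion transporter of brain endothelium, had 1.39, 5.38 and 5.07 CPM in IP and 15.5, 24.1 and 26.4 CPM in input (log2 -2.48 ± 0.65, adjusted p = 0.0229). Abcb1a, the efflux pump P-glycoprotein, had 0.929, 9.31 and 5.0 CPM in IP and 20.7, 15.9 and 29.4 CPM in input, groups that did not overlap without passing the threshold (log2 -2.12 ± 0.67, adjusted p = 0.0649). Cav1, the coat protein of caveolae, which Schwann and smooth muscle cells also make, had 30.8, 32.4 and 25.4 CPM in IP and 78.6, 47.6 and 47.8 CPM in input, a 1.97-fold difference (log2 -0.97 ± 0.28, adjusted p = 0.0433). Its call was lost when total counts replaced TMM (adjusted p = 0.0595), with all sites on the strand (0.0551), with sites at the annotated 3′ end alone (0.0567) and in a fit of the 6 naive libraries (0.0648). Abcg2, the efflux pump BCRP, and Slc2a1, the glucose transporter GLUT1, were closer to their input level and did not pass (log2 -0.58 ± 0.22 with adjusted p = 0.126, and -0.85 ± 0.37 with adjusted p = 0.192). For Abcg2 every naive IP library still lay below every naive input library, while those of Slc2a1 overlapped.

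Among the mural genes, Acta2 encodes the smooth muscle actin of contractile cells (GRCm38, chr19:34240336-34255585, minus strand). Acta2 had 0.542, 1.66 and 2.35 CPM in the naive IP and 29.5, 28.5 and 40.6 CPM in the naive input. The groups lay far apart, and the 21.5-fold difference was the largest called among the 30 genes (log2 -4.43 ± 0.56, adjusted p = 4.11e-05). Of the Acta2 counts, 99% came from a site 1186 bp upstream of the annotated 3′ end, and of the Ly6c1 counts 98.2% from a site 1007 bp upstream. Mylk, the kinase that activates smooth muscle myosin, had 6.66, 8.48 and 7.35 CPM in IP and 47.5, 38.2 and 31.5 CPM in input (log2 -2.38 ± 0.40, adjusted p = 7.33e-04). Tagln, the actin-binding protein SM22, had 9 counts over the IP and 104 over the input libraries (log2 -3.88 ± 1.36, adjusted p = 0.0951), with the groups separate. The smooth muscle myosin gene Myh11 and the muscle intermediate filament gene Des were at 0 counts in IP naive 1 and 2 and too sparse for a comparison (log2 -0.32 ± 2.37 and -2.16 ± 2.47).

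The pericyte genes were mixed. Pdgfrb, which pericytes need for their recruitment, had 7.20, 10.7 and 11.3 CPM in IP and 32.2, 8.32 and 21.0 CPM in input, overlapping groups (log2 -1.07 ± 0.52, adjusted p = 0.251). A site in a B2 repeat, 6735 bp upstream of its annotated 3′ end, held 32.7% of the Pdgfrb counts and is left out of the sum. This site had 0, 17.9 and 0 CPM in naive input and 0, 2.69 and 0 CPM in naive IP. The overlap in naive ganglia thus holds only for the sum without it. The proteoglycan gene Cspg4 (NG2) was at 0.414 to 3.01 CPM in IP and 4.90 to 7.68 CPM in input (log2 -1.92 ± 0.86, adjusted p = 0.21), with no overlap. Notch3, the Notch receptor of mural cells, had 8 counts over the IP, all in IP naive 2, and 112 over the input (log2 -4.11 ± 1.5, adjusted p = 0.112). Kcnj8 and Abcc9 encode the pore and the regulatory subunit of the pericyte ATP-sensitive potassium channel. Kcnj8 had 0 counts in all 6 IP libraries, and 24 counts in the naive input, all in input naive 1. Over the summed counts the IP was at least 10.9-fold lower, a bound that rests on 1 input library. The Kcnj8 difference was not past the threshold. The counts in the Abcc9 sum also came from single naive libraries, 30 in IP naive 3 and 108 in input naive 1.

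Rgs5, a regulator of G protein signalling used as a pericyte marker, was not lower in the IP. Rgs5 had 11.5, 21.8 and 18.8 CPM in the naive IP and 19.7, 17.1 and 10.6 CPM in the naive input, and 20.8, 11 and 18.8 CPM in the injured IP against 9.38, 13.8 and 7.36 CPM in the injured input. The groups overlapped in both conditions (log2 0.14 ± 0.44 and 0.73 ± 0.44, adjusted p = 0.916 and 0.421). All of its counts came from 2 sites, 1222 and 2321 bp upstream of the annotated 3′ end (GRCm38, chr1:169655501-169695813, plus strand). No site lay at the end itself.

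**Figure D2:**
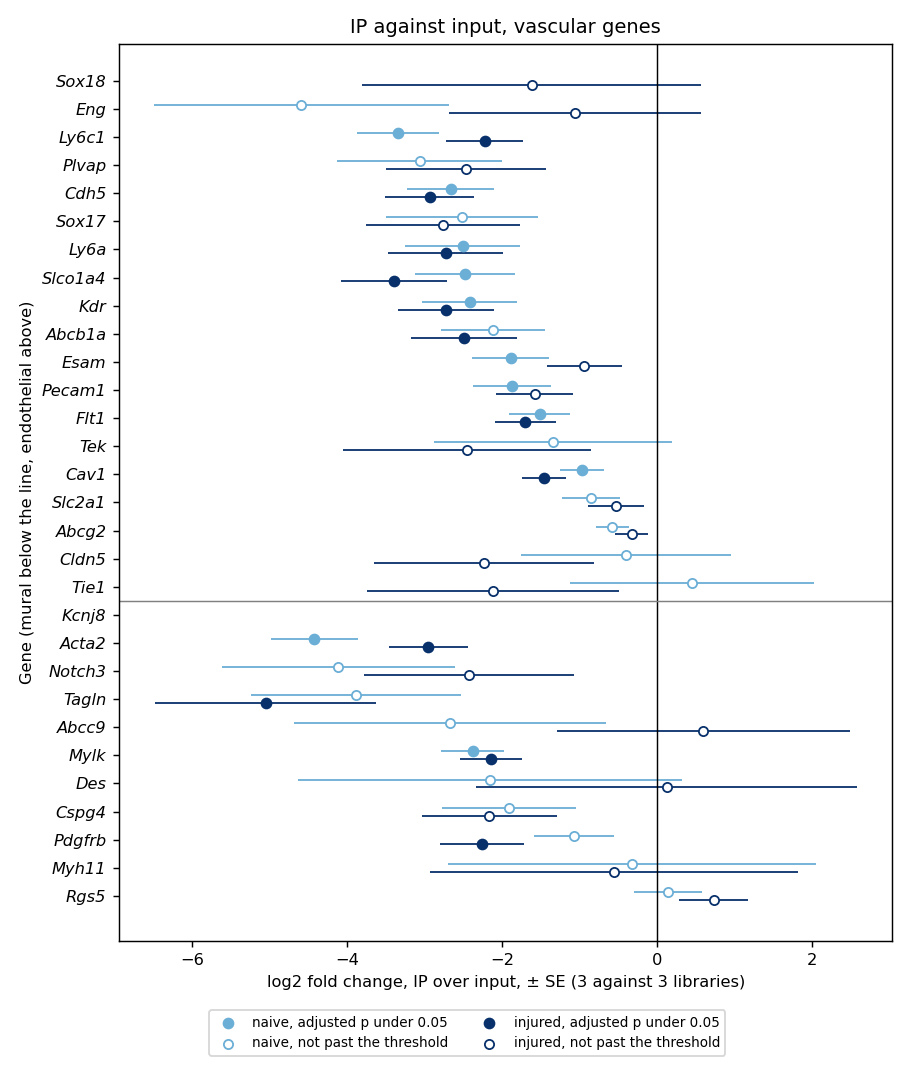
Log2 fold change of IP over input ± SE for each vascular gene in naive (light) and injured (dark) ganglia, 3 against 3 libraries; filled points have an adjusted p under 0.05, and genes with 0 counts in a whole group are left out. All filled points lie to the left of 0, from -0.97 (Cav1, naive) to -5.05 (Tagln, injured). Tagln passes the low-count filter in the input but not in the IP libraries.

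In injured ganglia, 12 of the 30 genes were lower in the IP than in the input and 0 higher, against 4.02% and 1.91% of all tested genes. For 20 of the 30, every IP library lay below every input library, against 14.4% of all tested genes. The medians were -2.23 for the endothelial and -2.17 for the mural genes, at 21.3% and 22.2% of the input level. The 12 were Acta2, Mylk, Tagln and Pdgfrb of the mural genes, and Cav1, Cdh5, Slco1a4, Ly6c1, Kdr, Flt1, Ly6a and Abcb1a of the endothelial genes. Abcb1a (log2 -2.50 ± 0.69, adjusted p = 0.035), Pdgfrb and Tagln were called here and not in naive ganglia, Esam (log2 -0.94 ± 0.48, adjusted p = 0.306) and Pecam1 (log2 -1.58 ± 0.49, adjusted p = 0.0653) only in naive ganglia, and no difference between the conditions passed the interaction test for any of the 30 genes.

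Acta2 had 2.20, 7.08 and 5.50 CPM in the injured IP and 22.4, 42.2 and 49.5 CPM in the injured input (log2 -2.95 ± 0.51, adjusted p = 0.00114). Pdgfrb had 4.17, 2.94 and 6.16 CPM in IP and 23.7, 11.5 and 28.8 CPM in input (log2 -2.26 ± 0.54, adjusted p = 0.0144). Both genes had separate groups after injury. Pdgfrb had not in naive ganglia, where its sum leaves out the B2 site given above. Tagln, which passes the low-count filter in input but not IP libraries, had 8 counts over the IP and 206 over the input. Its difference was the largest among the called genes (log2 -5.05 ± 1.43, adjusted p = 0.0398). The Tagln call was lost when any 1 of the 6 libraries compared was left out (highest adjusted p = 0.161), and also without input naive 1 (0.0546). Kcnj8, which likewise passes the filter in input but not IP libraries, was not past the threshold. Over the summed counts it was at least 30.2-fold lower in the IP, from 0 against 65. The injured input libraries held 23, 3 and 39 of these.

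Which calls rest on single libraries was checked by leaving out each of the 12 in turn. In naive ganglia Acta2, Ly6c1, Mylk and Cdh5 kept their call in all 12 such fits. The calls of Kdr, Flt1, Slco1a4, Esam, Pecam1, Cav1 and Ly6a were lost in 3 to 6 of them, with highest adjusted p of 0.0945, 0.111, 0.0956, 0.0662, 0.153, 0.206 and 0.133. In injured ganglia Acta2, Mylk, Cav1, Cdh5, Slco1a4 and Flt1 kept their call in all 12 fits. The calls of Ly6c1 (lost without IP injured 1), Kdr, Pdgfrb, Ly6a and Abcb1a were lost in 1 to 5 fits, with highest adjusted p of 0.0605, 0.0584, 0.0762, 0.153 and 0.174. All lost calls kept their sign. Without IP naive 2, Abcb1a, Plvap, Notch3 and Abcg2 became calls in naive ganglia (adjusted p = 0.0267, 0.0149, 0.0122 and 0.049), and without IP injured 3 Pecam1 did in injured ganglia (0.0213). Leaving out a library of the other condition added Plvap (without IP injured 2, 0.0356) and Abcb1a (without input injured 3, 0.0476) in naive ganglia.

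Genes of other cells that the ganglion holds were lower in the IP as well. In naive ganglia the median gene stood at 14.5% of its input level among 7 tested satellite glia genes, 11.8% among 9 Schwann cell and myelin genes, 14% among 13 macrophage genes, 10.7% among 9 fibroblast genes and 10.8% among 3 genes of red blood cells. The 18 neuronal genes had a median of 129%, with 7 higher and 0 lower past the threshold. The share of calls was 6 of 7, 8 of 9, 8 of 13, 5 of 9 and 3 of 3 for the non-neuronal lists in the order given. Over all tested genes 5% were lower and 1.96% higher. How many genes of these lists pass the low-count filter in the IP libraries alone is not given here. A lower IP level in them is thus not shown to be independent of the filter. No difference between these lists and the vascular genes was tested.

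**Figure D3:**
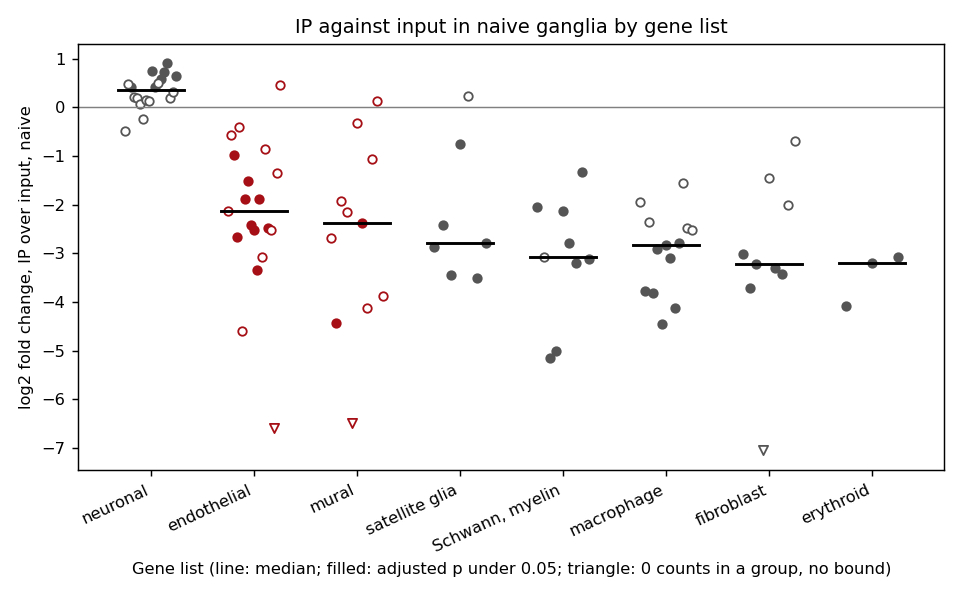
Log2 fold change of IP over input in naive ganglia, each point a tested gene, grouped by list; lines mark list medians, filled points an adjusted p under 0.05, and triangles genes with 0 counts in a group, whose fitted value is no bound. The neuronal median is 0.36, and the endothelial (-2.12) and mural (-2.38) medians lie below 0 but nearer to it than those of the other non-neuronal lists, which run from -2.78 to -3.23.

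The next question was which vascular RNAs differ after injury. In the IP, 2 of the 30 genes rose, Slc2a1 and Abcg2, and 0 fell, against 1.36% of all tested genes higher and 0.167% lower. Both are transporters of barrier endothelium, and neither differed between IP and input past the threshold in naive or injured ganglia. In the input, 0 of 30 passed the threshold by edgeR, 2 had an unadjusted p under 0.05, and DESeq2 called those same 2, again Slc2a1 and Abcg2. The share called over all genes in the input was 0.896% higher and 0.281% lower. In bulk input RNA a change in cells of a type and a change in RNA per cell cannot be told apart.

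Slc2a1 encodes GLUT1, which carries glucose across endothelium and is used by many other cell types (GRCm38, chr4:119108745-119137330, plus strand). Slc2a1 had 16.8, 36.6 and 30.9 CPM in the naive IP and 86.8, 114 and 61.4 CPM in the injured IP. The injured libraries all lay above the naive ones, and the level rose 3.11-fold (log2 1.64 ± 0.38, adjusted p = 0.0277). In the input it had 27.3, 90.9 and 33.7 CPM in naive and 120, 108 and 151 CPM in injured ganglia. These groups were also separate, with input naive 2 far above the other 2 naive libraries (log2 1.32 ± 0.37, adjusted p = 0.112). The input difference passed with DESeq2 (adjusted p = 0.029), with no filter on low counts (0.0471) and with the replicate number as a block (0.0131). Without input naive 2 it was 2.07 ± 0.33 (adjusted p = 0.00154). Of its counts, 90.2% came from 1 site 26 bp before the annotated 3′ end and 9.80% from a site 83 bp before it.

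Abcg2 encodes the breast cancer resistance protein, an efflux pump on the blood side of barrier endothelium that stem cells and other tissues also use (GRCm38, chr6:58584491-58692451, plus strand). Abcg2 had 61.5, 81.2 and 49.3 CPM in the naive IP and 95.3, 169 and 116 CPM in the injured IP. The groups did not overlap, and the level rose 1.98-fold (log2 0.99 ± 0.22, adjusted p = 0.0205). In the input the naive libraries had 102, 89.8 and 94.7 CPM and the injured ones 151, 165 and 162 CPM. Both input groups were tight and well apart, and the difference was 0.74 ± 0.22 (adjusted p = 0.131), past the threshold with DESeq2 (0.0499). Nearly all Abcg2 counts (99.5%) came from 1 site 31 bp before the annotated 3′ end.

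Neither call in the IP held without every library. Abcg2 lost it without IP naive 1 (adjusted p = 0.0979), IP naive 3 (0.139), IP injured 2 (0.198) and IP injured 3 (0.0516), and in a fit of the 6 IP libraries alone (0.0502). Slc2a1 lost it without IP naive 1 (0.165), IP naive 3 (0.0798), IP injured 1 (0.0782) and IP injured 2 (0.155). The interaction, which asks whether the injury difference in IP departs from that in input, was 0.32 ± 0.52 for Slc2a1 and 0.25 ± 0.31 for Abcg2. It was not past the threshold for either gene or for any other gene tested (edgeR, 383 genes at unadjusted p under 0.05; DESeq2 called 14).

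**Figure D4:**
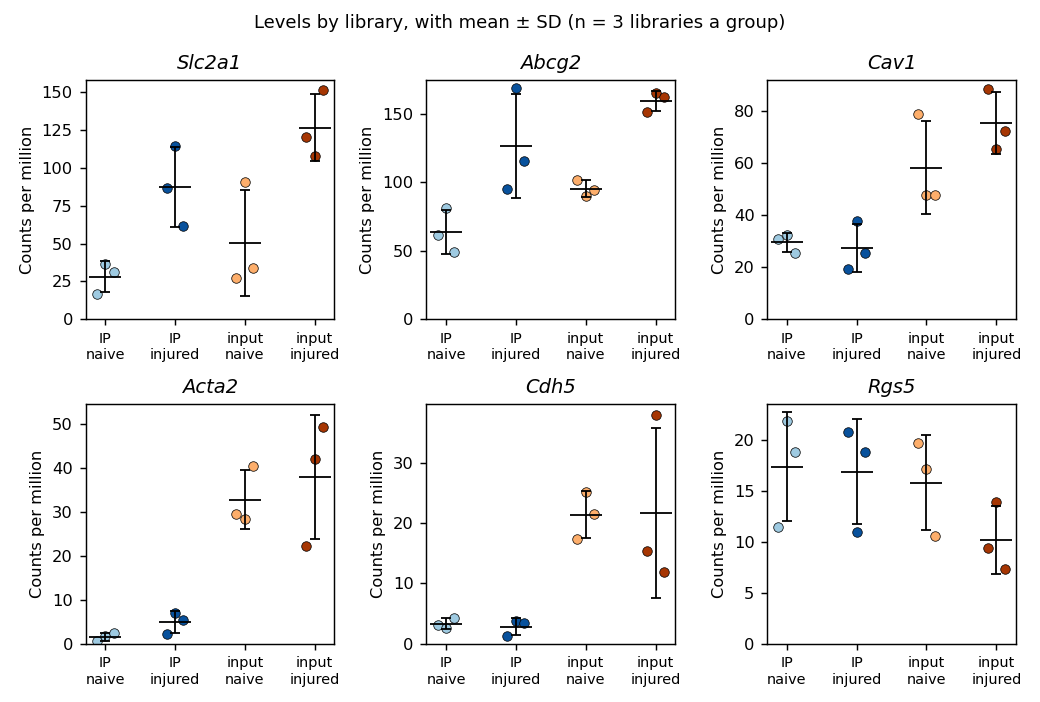
CPM of 6 vascular genes in each library (points), with mean ± SD of the 3 libraries of each group (bars); the vertical axes start at 0. Slc2a1 and Abcg2 are higher in injured than in naive ganglia in both fractions without overlap, Acta2, Cdh5 and Cav1 are lower in IP than in input, and the groups of Rgs5 overlap.

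Promoter windows of these 2 genes are shown because they were the only ones of the 30 genes called after injury. The windows run from 250 bases before to 50 after a RefSeq start in GRCm38.p6. Each was searched on both strands for the core of the hypoxia response element (ACGTG), the AP-1 site (TGANTCA), the cAMP response element (TGACGTCA) and the CArG box bound by serum response factor. Capitals mark the match.
Slc2a1, chr4:119108495-119108794, plus strand: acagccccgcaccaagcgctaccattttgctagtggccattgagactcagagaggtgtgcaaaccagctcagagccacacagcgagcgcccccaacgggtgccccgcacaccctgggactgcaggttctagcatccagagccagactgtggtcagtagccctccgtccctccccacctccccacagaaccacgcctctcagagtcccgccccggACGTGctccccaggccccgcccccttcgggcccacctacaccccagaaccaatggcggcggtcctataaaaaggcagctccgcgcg
Abcg2, chr6:58640296-58640595, plus strand: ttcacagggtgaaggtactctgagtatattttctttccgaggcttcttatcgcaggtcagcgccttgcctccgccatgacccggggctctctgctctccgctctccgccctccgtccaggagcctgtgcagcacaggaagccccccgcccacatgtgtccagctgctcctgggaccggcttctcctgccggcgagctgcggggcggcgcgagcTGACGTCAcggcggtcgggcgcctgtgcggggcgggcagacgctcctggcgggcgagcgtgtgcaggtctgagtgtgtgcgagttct

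The Slc2a1 window holds 1 hypoxia response core, which begins 36 bases before the start. The Abcg2 window shown holds 1 cAMP response element, which begins 37 bases before the start, and the windows of the 2 other Abcg2 starts in the table hold none of the 4 motifs. Over all 32851 promoter windows, 19.6% hold the hypoxia response core, 7.81% the AP-1 site, 1.79% the cAMP response element and 1.63% the CArG box. Of the 22 vascular genes in the table, 4 had the first in a window (Cav1, Mylk, Notch3 and Slc2a1), 1 the second (Mylk), 2 the cAMP response element (Abcg2 and Flt1) and 0 the CArG box. A match is a run of letters in the window, and binding was not measured.

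The remaining endothelial genes showed no call after injury. In the IP the log2 differences of Cdh5, Pecam1, Kdr, Flt1, Cav1, Sox17, Ly6a and Plvap lay between -0.24 and 0.47, with adjusted p of 0.942 or more. Esam had 0.79 ± 0.48 and Ly6c1 0.99 ± 0.50 (adjusted p = 0.655 and 0.517), with overlapping groups. Slco1a4, Abcb1a, Cldn5, Tek and Tie1 had negative values of -0.61 to -1.14 (adjusted p = 0.636 to 0.938), and of these the groups of Tie1 alone did not overlap, at 1.029 to 2.28 CPM in naive and 0.653 to 1.026 CPM in injured libraries. Eng was at 0, 0.414 and 0 CPM in naive and 0.866, 2.18 and 1.10 CPM in injured IP libraries (log2 3.29 ± 1.80, adjusted p = 0.572). Sox18, with 0 naive counts, had 20 counts in the injured IP, at least 6.79-fold higher (adjusted p = 0.467). For Eng and Sox18 the injured libraries were all above the naive ones, at counts of 20 or fewer per library.

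Among mural genes in the IP, Acta2 came closest to the threshold after injury. Its naive libraries had 0.542 to 2.35 CPM and its injured libraries 2.20 to 7.08 CPM, which overlap (log2 1.68 ± 0.53, adjusted p = 0.159). Pdgfrb was at 7.20 to 11.3 CPM in naive and 2.94 to 6.16 CPM in injured libraries, with no overlap (log2 -1.13 ± 0.53, adjusted p = 0.464). The B2 site of Pdgfrb that the sum leaves out went the other way. It had 0, 2.69 and 0 CPM in naive and 1.10, 15.4 and 2.05 CPM in injured IP libraries. The separation of the Pdgfrb groups in the IP thus holds only for the sum without that site. Notch3 and Abcc9 also had separate groups, higher after injury, from 8 and 30 naive against 64 and 170 injured counts (log2 2.66 ± 1.43 and 2.82 ± 2.02, adjusted p = 0.558 and 0.751). Mylk, Cspg4 and Rgs5 had differences of 0.38, 0.30 and -0.04, and Tagln, Myh11 and Des at most 30 counts in each IP group.

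Over the 30 genes in the IP, groups were separate for 6 with injured libraries higher (Eng, Sox18, Abcg2, Slc2a1, Notch3 and Abcc9). They were separate for 2 with injured libraries lower (Tie1 and Pdgfrb). Over all tested genes the shares were 11% and 7.87%. For Pdgfrb and Abcc9 the levels leave out the repeat sites given above. In the input the groups were separate for 5 with injured libraries higher (Kdr, Abcg2, Slc2a1, Tagln and Cspg4) and for 0 with them lower. The shares over all tested genes there were 7.82% and 7.2%. Kdr had 31.2, 33.6 and 17.1 CPM in naive and 36.0, 57.2 and 41.1 CPM in injured input libraries (log2 0.72 ± 0.58, adjusted p = 0.777). Tagln was at 3.79 to 4.04 CPM in naive and 4.35 to 12.4 CPM in injured input (log2 1.02 ± 1.20, adjusted p = 0.884), and Cspg4 differed by 0.55 ± 0.83 (adjusted p = 0.921). Median differences were 0.22 for the endothelial and 0.30 for the mural genes in the IP, and 0.02 and 0.21 in the input, against 0.02 and 0.00 over all tested genes.

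**Figure D5:**
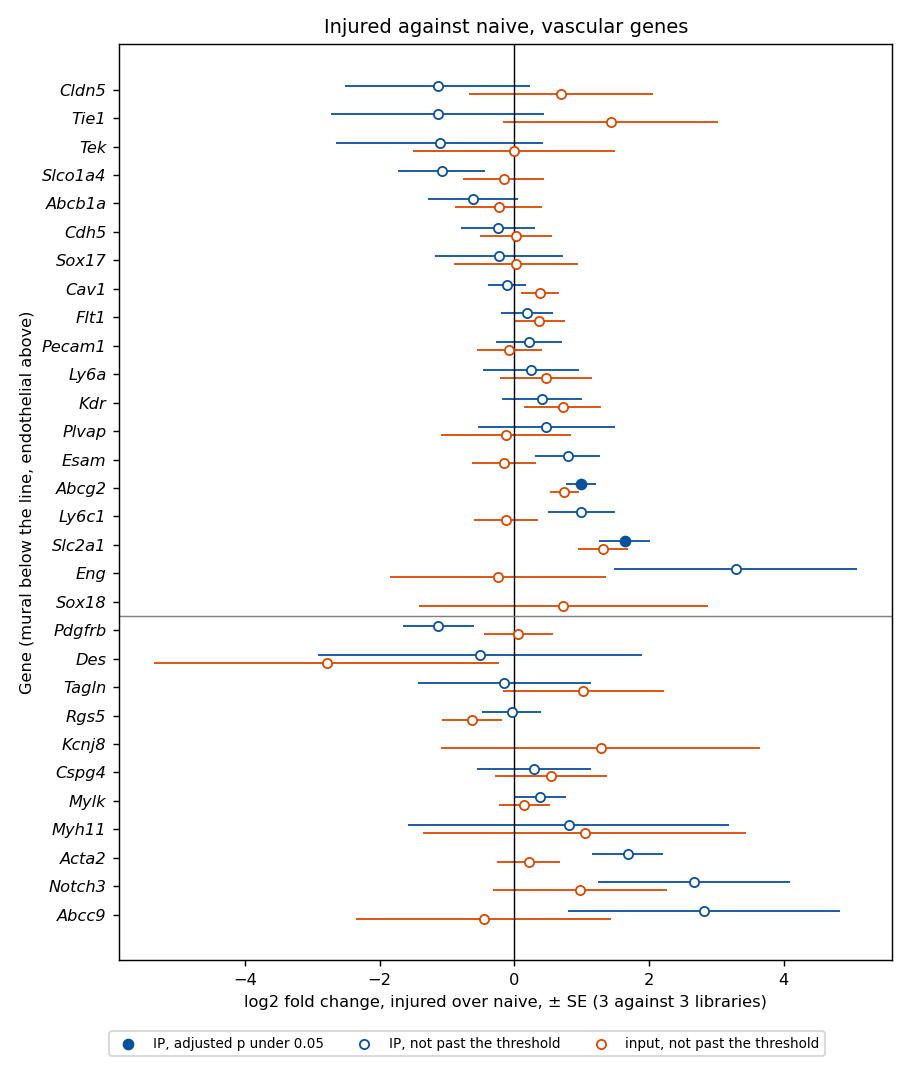
Log2 fold change of injured over naive ± SE for each vascular gene in IP (blue) and input (orange), 3 against 3 libraries; filled points have an adjusted p under 0.05, and genes with 0 counts in a whole group are left out. Abcg2 (0.99) and Slc2a1 (1.64) in the IP are the only filled points.

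Summed over the 19 endothelial genes placed, the level was 189 ± 46.4 CPM in naive IP, 322 ± 76.2 in injured IP, 522 ± 10.5 in naive input and 704 ± 68.5 in injured input. Abcg2 was the most abundant member in each group, and without it the sums were 125, 195, 427 and 544 CPM. Without Abcg2 and Slc2a1, an alternative chosen after seeing the data, the other 17 genes summed to 96.9 ± 25.1, 108 ± 25.3, 376 ± 20.6 and 418 ± 52.7 CPM, with naive and injured libraries overlapping in both fractions. Summed over the 11 mural genes, the levels were 40.2 ± 10.7, 46.8 ± 7.46, 132 ± 32.3 and 148 ± 16.5 CPM. Beside these, the summed level of 13 macrophage genes was 31.8 to 64.5 CPM in naive and 23.5 to 136 CPM in injured IP libraries, and 300 to 449 against 482 to 672 CPM in the input. That of 7 satellite glia genes was 1767 to 2152 CPM in naive and 2384 to 2800 CPM in injured IP libraries, without overlap. In the input it was 3710 to 3769 against 3910 to 4220 CPM. Without Hmgcs1, the most abundant gene of that list, the IP sums were 593 to 809 and 921 to 1242 CPM. The input sums without it overlapped, at 2545 to 2824 and 2696 to 3133 CPM. In the IP 4 of the 7 had positive injury differences, with a median of 0.19. Of the 7, 1 was called, the glutamine synthetase gene Glul (log2 0.92 ± 0.12, adjusted p = 5.15e-05), against 1.36% of all tested genes higher. C1qc, which encodes a chain of complement C1q and is made by macrophages, rose in the IP (log2 2.43, adjusted p = 0.0171), a call lost without IP naive 1, IP naive 3 or IP injured 3 (highest adjusted p = 0.193). The median of 9 proliferation genes was 1.19 in the IP and 1.30 in the input with 0 called in either. The part of these cells in the vascular values was not tested.

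Other vascular genes were taken as lists, of which 36 of 50 endothelial, 17 of 31 mural and 25 of 36 signalling genes were tested. In naive ganglia 9, 4 and 5 of them were lower in the IP and 0, 1 and 0 higher. Over all tested genes 5% were lower and 1.96% higher. The lowest p among the endothelial list belonged to Cd93, a glycoprotein of endothelial adhesion, with 0.464 to 2.72 CPM in IP and 21.6 to 26.3 CPM in input (log2 -4.08 ± 0.53, adjusted p = 5.23e-05), followed by Notch1 (-2.77), the adrenomedullin co-receptor gene Ramp2 (-3.53) and Tm4sf1 (-2.30). In the mural list Cald1 (-2.64), which regulates actin and myosin, Vtn (-3.83), the matrix protein vitronectin made by pericytes, and the myosin light chain gene Myl9 (-3.15) were lower. Rgs4, a relative of Rgs5 that neurons also express, was higher in the IP in naive and injured ganglia (log2 0.79 ± 0.11 and 0.80 ± 0.11, adjusted p = 8.14e-05 and 8.01e-05), at 2406 to 2443 CPM in naive IP and 1327 to 1474 CPM in naive input. Of the signalling genes, Timp3 (-1.72), the vessel-destabilising ligand gene Angpt2 (-3.08), Tgfbr2 (-2.38) and the chemokine gene Cxcl12 (-2.69) had the lowest p.

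In injured ganglia 7, 5 and 4 genes of these lists were lower in the IP and 0, 1 and 0 higher. Over all tested genes 4.02% were lower and 1.91% higher. The genes lower in the lists were led by Notch1 (-2.69), Cd93 (-3.00), Vtn (-3.45) and Timp3 (-1.35). After injury 1 of 36 genes of the endothelial and 0 of 17 of the mural list rose in the IP and 0 fell. Over all tested genes 1.36% rose and 0.167% fell. Tm4sf1, a membrane protein abundant in endothelium, had 5.34, 12.8 and 3.31 CPM in naive and 26.9, 38.1 and 29.1 CPM in injured IP libraries (log2 2.14 ± 0.42, adjusted p = 0.00673), a call lost only without IP naive 1 (adjusted p = 0.0523). In the input none of the 3 lists had a gene past the threshold, and Tm4sf1 differed by 0.88 ± 0.39 (adjusted p = 0.405). The comparisons of injury in the IP and of IP against input share the IP libraries, so their values for a gene are not independent.

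The libraries read 3′ ends, so the use of alternative sites within a gene could be compared. Of the 30 genes, 10 had more than 1 site past the filter, among 5303 such genes. None of the 10 changed its site use past the threshold in the 4 comparisons, where 0 genes (0%) were called for injury in IP or in input, and 0.113% of genes in naive and 0.0377% in injured ganglia for the IP against the input. At unadjusted p under 0.05 the counts of all genes were 121, 228, 286 and 118, and of the 10 genes 1, Abcb1a for injury in IP. Flt1 had 3 sites, 11, 591 and 1404 bp before its annotated end, the first 2 with 39.5% and 44.6% of its counts. Kdr had 70.4% of its counts at a site 479 bp before its end and 29.6% at a site 8 bp before it. In both receptor genes the log2 differences in the relative use of a site after injury ran from -0.41 to 0.39, none past the threshold.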

How the data were processed

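The deposited table gives raw counts per 3′-end site and library, made by the authors and not normalized. Per the submitters' processing notes, STAR, HTSeq and bcl2fastq 2.17 were used with the builds GRCm38 and mm10, with no role given for each. How reads that align in several places were treated is not given in the sources used here. Of 178451 lines, 20 were damaged and left out, and 17 columns without a name were not used. Libraries were grouped by their titles. Whether site positions were counted from 0 or 1 is not stated.

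The first block of the table was read as minus strand and the second as plus. Gene strands came from RefSeq promoter records for 27025 genes and otherwise from counts at gene ends (at least 60 counts and 10 times those at the other end). The latter gave the recorded strand in 99.9% of 7972 protein-coding genes. A strand read from counts over a whole gene did so in 57.9% of 2403 and was not used. Of the 33 genes, 22 had a recorded strand, 10 a strand from counts (Cdh5, Esam, Ly6a, Pecam1, Plvap, Sox17, Sox18, Myh11, Pdgfrb and Tagln) and Vwf none. Sites on the strand of 1 gene, up to 200 bp past its 3′ end, were summed if outside repeats or within 100 bp of the end, which kept 72.7% of the counts.

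All 12 libraries entered 1 edgeR 4.0.16 quasi-likelihood fit in R 4.3.3, with 4 group means, TMM and filterByExpr. Tests were two-sided, with Benjamini-Hochberg adjustment over all genes tested. Site use was tested with diffSpliceDGE. Folds against 0 counts are bounds from 3 counts over a group, which allow for counting error alone, as PCR copies could not be removed. P-values reflect the spread between pools, which may be technical. The fit was also run on simulated data with known changes, and the outcome is not given here. Alternatives were DESeq2 1.42.0, other scaling, filters and site choices, fits of the compared groups alone, a replicate block and leaving out each library.

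The 33 genes and the other lists were chosen with earlier results of these data known. All 33 are named; of the other vascular lists, up to 4 called genes with the smallest adjusted p per comparison are named; other cell markers are given as counts, medians and sums. C1qc and Glul were singled out after their values were seen. The injury result of the signalling list in the IP is not reported here.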

Additional observations from a re-analysis of the deposited data

Results flagged for a closer look

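A site inside Mylk that the gene sums leave out drew attention because it was higher after injury in both fractions. It lies in a B2 repeat (GRCm38, chr16:34830414-34830439), 171997 bp upstream of the annotated 3′ end of Mylk, on the same strand. The site had 0, 0.517 and 0.0735 CPM in the naive IP and 1.57, 2.72 and 1.91 CPM in the injured IP, a ratio of means of 10.5. In the input it had 1.48, 0.694 and 4.79 CPM in naive and 5.24, 11.7 and 11.4 CPM in injured ganglia, a ratio of 4.06. The naive IP mean rests on 6 counts, 5 of them in IP naive 2, and the ratio in the IP was 7 to 56.3 with any 1 library left out, highest without IP naive 2. In the input it was 3.01 to 8.68, highest without input naive 3. These ratios without a library were added after seeing the data. The groups did not overlap in either fraction, but how many of all sites had separate groups is not given here. In the fit over all 46229 sites neither difference was past the threshold (edgeR, log2 3.36 ± 1.25, adjusted p = 0.463 in IP, and 1.88 ± 1.13, adjusted p = 0.696 in input). The sum for Mylk itself had log2 differences of 0.38 and 0.15. Which copy of the repeat its reads came from was not tested.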

How the results depend on the processing

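Of 27 calls or near-calls of single vascular genes, none changed sign under the alternatives that gave a value, and DESeq2 and RLE size factors lost none. Acta2 and Ly6c1, with few or no counts at their annotated 3′ ends, gave none when only such sites were summed, so their calls were not compared there. Calls among the 30 genes fell from 11 to 6 in naive and from 12 to 7 in injured ganglia (IP against input) when only sites at annotated 3′ ends were summed, and from 11 to 7 (naive) and from 2 to 1 (injury in IP) when only the groups compared were fitted. For injury in input they were 2 by DESeq2, 1 with no low-count filter and 1 with the replicate block, against 0. Over all genes DESeq2 called 350 for injury in IP (174 by edgeR), 288 for injury in input (134), 1267 and 1044 for the IP against the input of naive (792) and injured ganglia (676) and 14 for the interaction (0). Sites at 3′ ends alone gave 108 for injury in IP, 497 for naive and 433 for injured ganglia, all sites on the strand 1226 and 1200, and the groups compared alone 77 for injury in input. With any 1 library left out, the counts of vascular genes ran from 0 to 2, 0 to 1, 5 to 13 and 6 to 12 for injury in IP, injury in input, naive and injured ganglia, and those of all genes from 103 to 200 for injury in IP, 497 to 884 and 341 to 752 for naive and injured ganglia and 0 to 2 for the interaction. For site use they ran from 0 to 1 for injury in IP and in input, 0 to 9 in naive and 0 to 2 in injured ganglia.

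In the order naive IP, injured IP, naive input, injured input, the endothelial sums scaled to all deposited counts were 142, 238, 378 and 473 CPM, and the mural sums 30.1, 34.7, 96 and 99.3 CPM. With TMM scaling, as in the text, the endothelial sums without Abcg2 were 125, 195, 427 and 544 CPM, those without Abcg2 and Slc2a1 (chosen after seeing the data) 96.9, 108, 376 and 418 CPM, and the mural sums without Mylk 32.7, 37.0, 93.2 and 104 CPM. Injured and naive ganglia came from the same animals, but the labels do not say that a replicate number marks the same pool. Deviations of same-numbered libraries correlated at 0.008 to 0.105, each library best with its own number, a hint from the data and not the design. The replicate block gave 203 genes for injury in input, and ended the Tagln call in injured ganglia (adjusted p = 0.0615). The standard errors of Tagln, Notch3, Cldn5, Tek, Tie1, Eng, Abcc9, Sox18, Kcnj8, Myh11 and Des were over 1 on the log2 scale in every comparison (Kcnj8, with 0 counts in the IP, has none for injury there), and differences of that size were not detectable at their depth.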
